A study of Mus musculus with 6 samples.

Results

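Regions near gene ends at which an H3K4me3 peak was called in both libraries of neomycin-treated progenitor cells, and in neither library of untreated ones, are described here. They were chosen by presence: peaks of the 4 libraries on chromosomes 1 to 19 and X that shared at least 1 bp were merged into regions. A region was then kept when it held a peak of both neomycin libraries, held none of either untreated library and lay within 1 kb of the start or end of a protein-coding gene. This gave 424 regions of 16006 at gene ends (2.65%) and of 24104 regions in all, where 2.59% had the same pattern. They lay at an end of 514 genes, or 4.46% of the 11513 genes with any marked end. Because this contrast chose the members, their presence with neomycin and absence without it is no finding, and no test of it is given.

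The cells came from cochleae of C57BL/6 mice carrying Lgr5-EGFP-creERT2, of either sex and aged postnatal day 0 to 3, that had been dissected and cultured with growth factors. Dissociated cells were sorted by the green fluorescence that this allele places under control of the Lgr5 locus. The neomycin group had been exposed to the drug for 12 h, and the untreated group came from the same line, age range and culture without it. Both groups had 2 H3K4me3 libraries made with 1 antibody, and their 2 input libraries were not analysed here. Whether the paired libraries were separate cultures is not stated, and neither is the sex of the animals in each. The deposited names of the untreated lists carry H3K4me2 where the labels give H3K4me3. The labels were followed, which leaves some doubt about the mark in the untreated samples.

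Trimethylation of lysine 4 on histone H3 is placed by the SET1 and MLL enzyme complexes on nucleosomes around the starts of transcribed genes, and also at starts that are poised for transcription. The mark usually flanks the start itself, with a strong nucleosome just inside the gene and a weaker one upstream where transcription also runs outward. Lgr5-positive supporting cells of the newborn cochlea can divide and form hair cells, and neomycin is an aminoglycoside that kills hair cells in such cultures.

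The promoters of the most highly ranked members are given first, since they show what kind of sequence the member peaks lay beside. Regions were ranked by the lower of their 2 pileup percentiles, the share of peaks in a library's own list with a summit signal at or below theirs. The first 6 genes of that order whose start lay at the member region and had a promoter entry are shown, followed by Gstp1 and Prdx1, the members of the list for oxidative defence, which were added after their values were seen. Each is the RefSeq window of GRCm38.p6, the assembly of mm10, from 250 bases before to 50 after the annotated start, written 5′ to 3′ on the strand of the gene. Capitals mark letters of 10 short motifs on either strand. These are TATAAA of the TATA box, CCAAT of the CCAAT box, GGGCGG of the GC box, TGACTCA of AP-1 sites, CACGTG of the E-box, CCGGAAG of ETS factors, GCGCATG of NRF1, GATGGCG of YY1, TGACNNNGC of the antioxidant response element and TGACGT of cyclic AMP response elements. TGACNNNGC can overlap matches of the AP-1 letters, and a match is only a match of letters.
Rsl1: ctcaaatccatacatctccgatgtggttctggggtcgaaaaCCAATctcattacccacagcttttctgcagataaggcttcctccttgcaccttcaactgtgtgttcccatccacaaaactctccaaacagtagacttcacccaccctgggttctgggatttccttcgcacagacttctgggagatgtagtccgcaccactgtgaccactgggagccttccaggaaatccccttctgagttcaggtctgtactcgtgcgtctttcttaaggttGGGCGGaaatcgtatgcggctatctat
Dync1li1: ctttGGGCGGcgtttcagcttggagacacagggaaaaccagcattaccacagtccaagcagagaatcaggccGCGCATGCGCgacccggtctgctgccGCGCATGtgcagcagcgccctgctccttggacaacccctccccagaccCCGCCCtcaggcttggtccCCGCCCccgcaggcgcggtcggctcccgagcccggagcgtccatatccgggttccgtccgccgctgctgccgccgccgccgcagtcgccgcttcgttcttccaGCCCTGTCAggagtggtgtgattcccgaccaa
Smc2: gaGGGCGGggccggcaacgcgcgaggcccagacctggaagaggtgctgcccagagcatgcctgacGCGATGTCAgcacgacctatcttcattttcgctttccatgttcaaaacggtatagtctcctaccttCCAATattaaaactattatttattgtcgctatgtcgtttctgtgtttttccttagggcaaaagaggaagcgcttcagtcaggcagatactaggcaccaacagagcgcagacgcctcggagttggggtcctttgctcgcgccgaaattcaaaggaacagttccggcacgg
Cmc1: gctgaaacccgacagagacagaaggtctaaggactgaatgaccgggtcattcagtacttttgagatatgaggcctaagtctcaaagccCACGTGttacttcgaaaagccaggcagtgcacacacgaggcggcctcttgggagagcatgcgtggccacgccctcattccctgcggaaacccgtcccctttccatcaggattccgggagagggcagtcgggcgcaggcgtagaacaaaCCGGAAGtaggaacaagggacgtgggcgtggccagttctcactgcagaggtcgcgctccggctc
Tom1: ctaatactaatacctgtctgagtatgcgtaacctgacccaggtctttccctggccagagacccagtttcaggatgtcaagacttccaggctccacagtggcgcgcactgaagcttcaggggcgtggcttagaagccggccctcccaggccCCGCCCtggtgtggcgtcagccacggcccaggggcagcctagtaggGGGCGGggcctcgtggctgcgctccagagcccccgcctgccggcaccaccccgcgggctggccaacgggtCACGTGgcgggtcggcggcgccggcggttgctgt
Fen1: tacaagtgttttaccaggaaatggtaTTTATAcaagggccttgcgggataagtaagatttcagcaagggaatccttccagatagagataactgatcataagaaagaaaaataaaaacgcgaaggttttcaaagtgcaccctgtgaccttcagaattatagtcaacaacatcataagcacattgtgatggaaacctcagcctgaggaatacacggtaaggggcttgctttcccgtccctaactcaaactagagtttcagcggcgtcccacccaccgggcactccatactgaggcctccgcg
Gstp1: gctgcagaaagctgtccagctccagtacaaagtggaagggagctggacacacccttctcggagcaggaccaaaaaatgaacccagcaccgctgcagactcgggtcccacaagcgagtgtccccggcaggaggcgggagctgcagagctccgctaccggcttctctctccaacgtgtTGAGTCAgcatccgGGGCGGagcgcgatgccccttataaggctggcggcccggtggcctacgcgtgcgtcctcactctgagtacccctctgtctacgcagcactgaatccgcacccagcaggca
Prdx1: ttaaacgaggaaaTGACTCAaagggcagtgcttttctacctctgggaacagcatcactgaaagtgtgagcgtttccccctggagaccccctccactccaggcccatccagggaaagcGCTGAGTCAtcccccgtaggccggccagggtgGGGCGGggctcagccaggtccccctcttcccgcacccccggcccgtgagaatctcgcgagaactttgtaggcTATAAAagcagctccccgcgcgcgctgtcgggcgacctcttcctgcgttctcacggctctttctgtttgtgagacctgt
These windows differ in base composition. Rsl1, a zinc finger repressor of sex-dependent liver genes in the mouse (chr13:67172932-67173231, plus strand), had 50.0% G and C and a CpG observed-to-expected ratio of 0.495, and Fen1, the flap endonuclease of lagging-strand replication (chr19:10204344-10204643, minus strand), had 45.3% and 0.649. The window of Dync1li1, a light intermediate chain of the dynein motor (chr9:114688581-114688880, plus strand), had 68.0% and 0.916, with 3 GGGCGG and 3 GCGCATG matches. The windows of Smc2, a condensin subunit (chr4:52438971-52439270, plus strand), Cmc1, an assembly factor of cytochrome c oxidase (chr9:118150147-118150446, minus strand), and Tom1, an endosomal sorting adaptor (chr8:75033436-75033735, plus strand), had ratios of 1.01, 0.786 and 0.663. Gstp1, which conjugates glutathione to electrophiles (chr19:4037863-4038162, minus strand), carried 1 TGACTCA match, the letters of the AP-1 site. Prdx1, a peroxide-reducing enzyme (chr4:116685349-116685648, plus strand), carried 2, of which 1 overlaps a match to TGACNNNGC, the core of the antioxidant response element.

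Over all members, the promoter windows were rich in CpG, as were those of other marked genes. The 413 member genes whose start lay at a member region had a median G and C content of 62.0% and a median CpG ratio of 0.797, and 82.6% had a ratio over 0.6. For the 1934 genes with a region in all 4 libraries these values were 64.3%, 0.825 and 85.4%. Among all 17273 windows, 48.9% were over 0.6. The GC box GGGCGG was found in 72.9% of member promoters, in 72.2% of those marked in all 4 libraries and in 46.9% of all windows, and the ETS motif CCGGAAG in 23.0%, 18.8% and 12.1%. The AP-1 letters TGACTCA were found in 2.66%, 2.38% and 4.60%, and TGACNNNGC in 18.4%, 15.8% and 13.1%. A full p53 response element, a pair of p53 decamers at most 13 bases apart, was found in 0 of 413 member windows and in 7 of all 17273. The CCAAT box was found in 39.95%, 36.25% and 39.56%, so for these letters the members were nearer to all genes than to the other marked genes. No test was made of any of these shares.

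The lists themselves set the scale of what can be seen. They held 14203 and 11545 peaks in neomycin replicates 1 and 2, and 15938 and 10520 in untreated replicates 1 and 2, but no read totals. Depth is therefore unknown, and a missing peak is read as not called. Peaks were shorter in the neomycin lists, with medians of 70 and 141 bp against 310 and 339 bp in the untreated lists, and the shortest peak was 48 and 110 bp against 187 and 234 bp. A peak present in few cells and a weaker mark in all cells cannot be told apart in these pools. All 8 supporting and progenitor cell markers checked (Lgr5, Sox2, Sox9, Prox1, Fgfr3, Jag1, Hes5 and Hey1) had a peak within 1 kb of an end in all 4 libraries. The fuller list of 30 such genes was less uniform, with 24 marked in some library and 11 with a region in all 4. None of the 4 hair cell, 3 neuron, 2 glia, 4 mesenchyme, 3 endothelium and 3 macrophage and blood markers had one in all 4, and Ptprc, Csf1r, Spi1, Pecam1 and Cdh5 had none in any. The remaining endothelium marker, the receptor gene Flt1, had one in each neomycin library and none without the drug, but no region that met the rule. Of those 19 other-cell markers, 3 and 3 were marked in the neomycin libraries against 9 and 4 in the untreated libraries. In the fuller lists, 2 of 20 spiral ganglion neuron genes and 2 of 15 melanocyte and stria genes had a region in all 4 libraries. The fuller hair cell, glia, mesenchyme, endothelium and macrophage lists had 0.

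Member regions were short and of ordinary signal for their libraries. Their median length was 173 bp (range 110 to 461). The peaks in them in neomycin replicate 1 covered a median of 79 bp (48 to 391), and those in neomycin replicate 2 covered 140.5 bp (110 to 432). In neomycin replicate 1, 73 of 424 members (17.2%, 95% Wilson interval 13.9 to 21.1) had exactly the shortest length in that list, and in neomycin replicate 2, 69 (16.3%, 13.1 to 20.1). Intervals here cover counting error only. A region with an untreated peak is at least as long as that peak, so the length of the members is partly set by the rule.

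The summit pileup, the authors' count of overlapping fragments at the top of a peak, had medians of 7 and 11 in the neomycin libraries, with ranges of 5 to 18 and 7 to 28. These are also the medians of the whole lists, and they put the members at median percentiles of 57.3 and 62.4. The fold enrichment over local background had medians of 5.91 and 6.54, and the -log10 q-value 4.25 and 5.77. In the 2260 gene-end regions marked in all 4 libraries, the neomycin peaks had the same median pileup, 7 and 11, and the same median -log10 q-value, 4.25 and 5.77. They differed in extent, with medians of 111 and 189 bp of neomycin peaks per region, and more than 1 peak of neomycin replicate 1 in 34.6% of regions against 4.72% of members. This difference is partly built in, because peak bases are summed per region and an untreated peak can join several neomycin peaks into 1 region, which had a median length of 614 bp. The lowest member pileups, 5 and 7, were also the lowest of the whole lists, while the highest, 18 and 28, were below the 96 and 220 reached there.

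**Figure D1:**
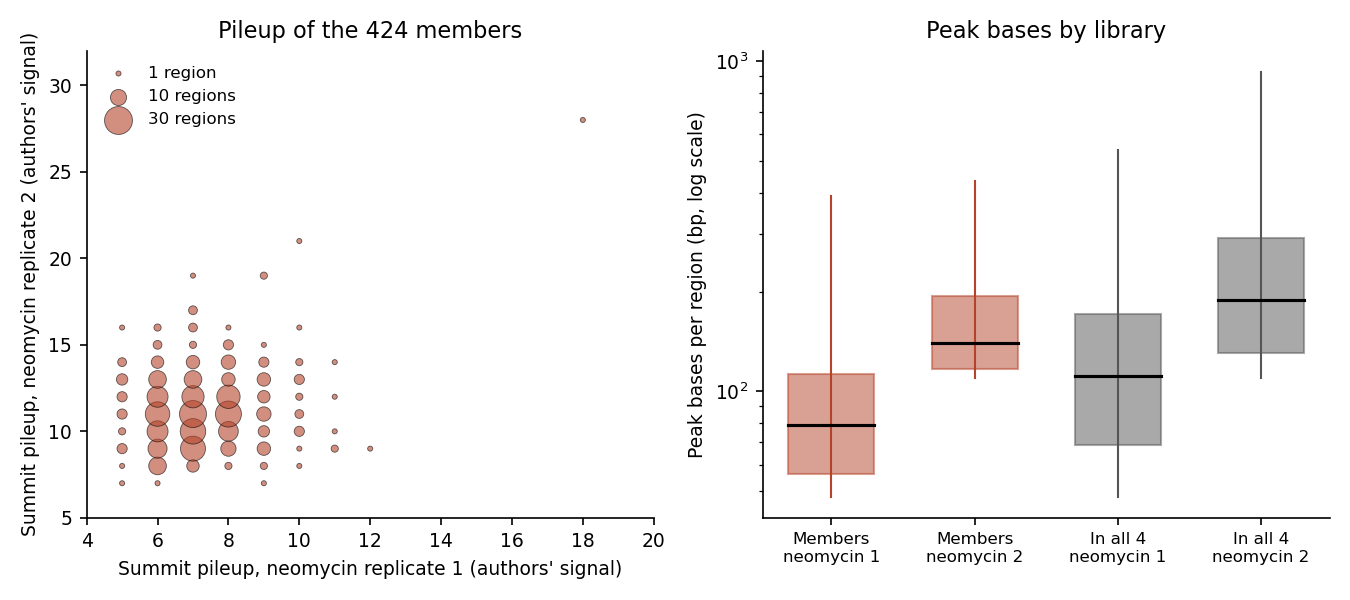
Left, summit pileup of each member in neomycin replicate 1 (x axis) and neomycin replicate 2 (y axis), with the circle area giving the number of regions; right, peak bases per region in each neomycin library (log axis), with boxes from the lower to the upper quartile, a line at the median and whiskers to the lowest and highest value, for the 424 members and the 2260 regions marked in all 4 libraries. Most members sit near 7 and 11, Slc30a4 stands apart at 18 and 28, and the member medians of 79 and 140.5 bp lie below 111 and 189 bp.

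Neomycin-only regions occurred at every level of signal. Of the 3571 gene-end regions with a peak in both neomycin libraries, 424 (11.87%) had no untreated peak, 743 (20.81%) had one in untreated replicate 1 alone, 144 (4.03%) in untreated replicate 2 alone and 2260 (63.29%) in both. Over 4 equal bins of the lower pileup percentile, from weakest to strongest, the neomycin-only share was 14.67%, 11.87%, 11.1% and 9.85%. Untreated replicate 1 has the most peaks of the 4 lists and accounted for most of the regions that missed the rule through a single untreated peak. The number of members depended on which lists had to meet the rule: without neomycin replicate 1 it was 2168, without neomycin replicate 2 it was 2501, without untreated replicate 1 it was 1129 and without untreated replicate 2 it was 601. When the q-value had to reach 5 on the -log10 scale, it was 89, and 77 of the 424 members remained. In the opposite direction, 1573 gene-end regions (9.83%) were marked by both untreated lists and by no neomycin list.

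The members ranked highest by pileup were a mixed set of genes. Slc30a4, a zinc transporter, had the highest pileup of all, 18 in neomycin replicate 1 and 28 in neomycin replicate 2, at chr2:122681532-122681670. This region lay 299 bp inside the downstream end of the gene and not at its start, and its fold enrichment of 3.44 and 3.24 was the lowest of any member in each library. Its -log10 q-values stood at percentiles of 17.97 and 28.4 in the lists of neomycin replicates 1 and 2. Each untreated library had 1 peak in the gene or within 1 kb of it, toward the start of the gene. The nearest untreated peaks lay 20.6 kb from the region in both untreated libraries. Next came Rsl1, with a pileup of 11 and 14 in the neomycin libraries and untreated peaks no nearer than 95.4 and 44.6 kb. Rsl1 belongs to a cluster of similar zinc finger genes, so the assignment of reads between copies is uncertain.

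Cmc1 had a pileup of 10 and 14 in the neomycin libraries, with summits 311 and 232 bp inside the gene and no untreated peak nearer than 109 kb. Tom1 had 9 and 19, with summits at 130 and 175 bp and untreated peaks 39.4 and 59.7 kb away, and it held another member region further inside the gene, with a pileup of 6 and 10. Sec14l2, which encodes a lipid-binding protein, had 9 and 14, and its nearest untreated peaks were 16.5 kb away in both lists. The starts of these genes were bare of peaks in the untreated lists.

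The other regions of the first 12 had an untreated peak close by. Dync1li1 had a pileup of 10 and 16 in the neomycin libraries, with summits 373 and 315 bp upstream of its start, and untreated peaks 305 and 320 bp away. Smc2 had 10 and 14 and an untreated replicate 1 peak at 343 bp. The region shared by Fen1 and Tmem258, a subunit of the oligosaccharyltransferase, had 9 and 19 and an untreated replicate 2 peak at 401 bp. Clk4, a kinase of splicing factors, and its neighbour BC049762 had 9 and 14 with untreated peaks at 378 and 257 bp. Zfp850, a zinc finger gene, and the pair of Exosc7, an exosome subunit, and the palmitoyltransferase gene Zdhhc3 had untreated replicate 1 peaks at 144 and 120 bp. The last of the 12, at the predicted genes Gm40363 and Gm40364, had 10 and 21 with untreated peaks at 360 and 256 bp. At Smc2, Zfp850 and the pair of Exosc7 and Zdhhc3 only untreated replicate 1 had a peak within 1 kb, and at Fen1 and Tmem258 only untreated replicate 2. At all of these genes at least 1 untreated library thus had a peak, beside the member and not in it.

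This held for most members. The nearest peak of either untreated library lay a median of 404.5 bp from the region, and 233 of 424 members (54.95%) had one within 0.5 kb. Within 1 kb the share was 61.56% (261 members, 95% Wilson interval 56.84 to 66.06), and within 10 kb 69.81%. The count went from 261 members at 1 kb through 278 at 5 kb to 296 at 10 kb, so some members, Trp53 among them, had their nearest untreated peak at intermediate distances. Untreated replicate 1 had a peak within 1 kb of 57.78% of members and untreated replicate 2 of 41.51%. Without untreated replicate 1 in the rule and in the distance, the share was 39.95%. The closest cases were at Sh3rf1, a ubiquitin ligase, Ano6, a lipid scramblase, and the homeobox gene Irx5, each 4 bp from an untreated peak. For the 1573 regions marked in untreated cells alone, the share with a neomycin peak within 1 kb was 45.96% (43.51 to 48.43). Peaks of both untreated libraries lay within 1 kb of 160 of 424 members (37.74%). The words neomycin-only therefore describe the called interval. When a peak of either untreated library counts, they do not describe the gene end for most members.

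**Figure D2:**
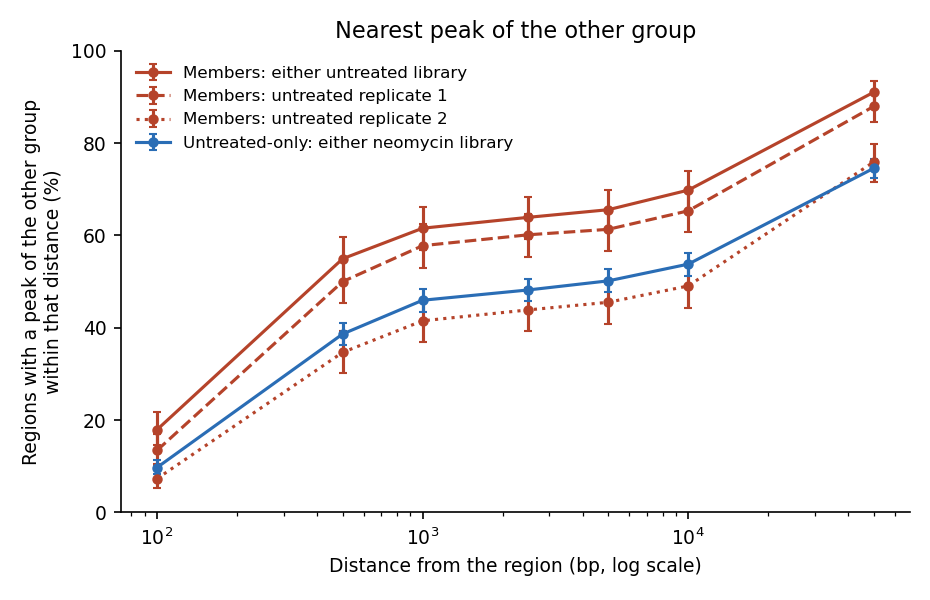
Share of regions (y axis, percent) with a peak of the other group within a given distance (x axis, bp, log scale), for the 424 members against either or each untreated library and for the 1573 untreated-only regions against either neomycin library; bars are 95% Wilson intervals. The curve for members reaches 61.56% at 1 kb and 69.81% at 10 kb, against 45.96% and 53.78% for untreated-only regions. Number and length of peaks differ between the lists, so the curves are not like for like.

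The 261 members beside an untreated peak and the 163 away from one were described apart, a split chosen after the distances were seen. Of the 261, 160 had peaks of both untreated libraries within 1 kb, 85 of untreated replicate 1 alone and 16 of untreated replicate 2 alone. The nearest untreated peaks had median lengths of 293 and 309.5 bp and stood at median pileup percentiles of 51.8 and 59.9 of their own lists. At 189 of the 261 (72.41%) the neighbouring region also held a neomycin peak. It held peaks of both neomycin libraries at 75 (28.74%). By the standard of 2 libraries used for the members, then, a peak next to the member was shared with the neomycin group at a minority of these sites. Where strand was known for the placement, the untreated peak lay upstream of the member at 95, downstream at 105 and on both sides at 20.

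Summits lay at different places in these classes of member. Among members with a strand and a start, the summit of neomycin replicate 1 lay upstream of the start at 21 of 136 away from untreated peaks (15.44%, Wilson interval 10.33 to 22.45) and at 95 of 217 beside one (43.78%, 37.34 to 50.43). In neomycin replicate 2 the shares were 15.44% and 42.4%. From 1 to 500 bp inside the gene, the place usual for this mark, lay 75.74% and 76.47% of summits away from untreated peaks in neomycin replicates 1 and 2, and 31.34% and 32.72% of those beside one. A further 24.88% of the members beside an untreated peak had their summit over 500 bp inside the gene in each neomycin library. The rule and the split bear on these shares. A member may not overlap an untreated peak, which limits where a member beside one can lie. In regions marked in all 4 libraries 72.6% of the summits of untreated replicate 1 lay in those first 500 bp. Where the untreated peaks beside members lay relative to the start was not measured. How far the rule shifts these summits was therefore not tested. For comparison, 66.25% and 66.63% of regions marked in all 4 libraries had their neomycin summit 1 to 500 bp inside the gene. That is below the members away from untreated peaks and above those beside one. At or inside the start lay 88.05% and 87.95% of the neomycin summits of regions marked in all 4 libraries, against 67.14% and 67.99% for all members. No test was made of these shares.

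**Figure D3:**
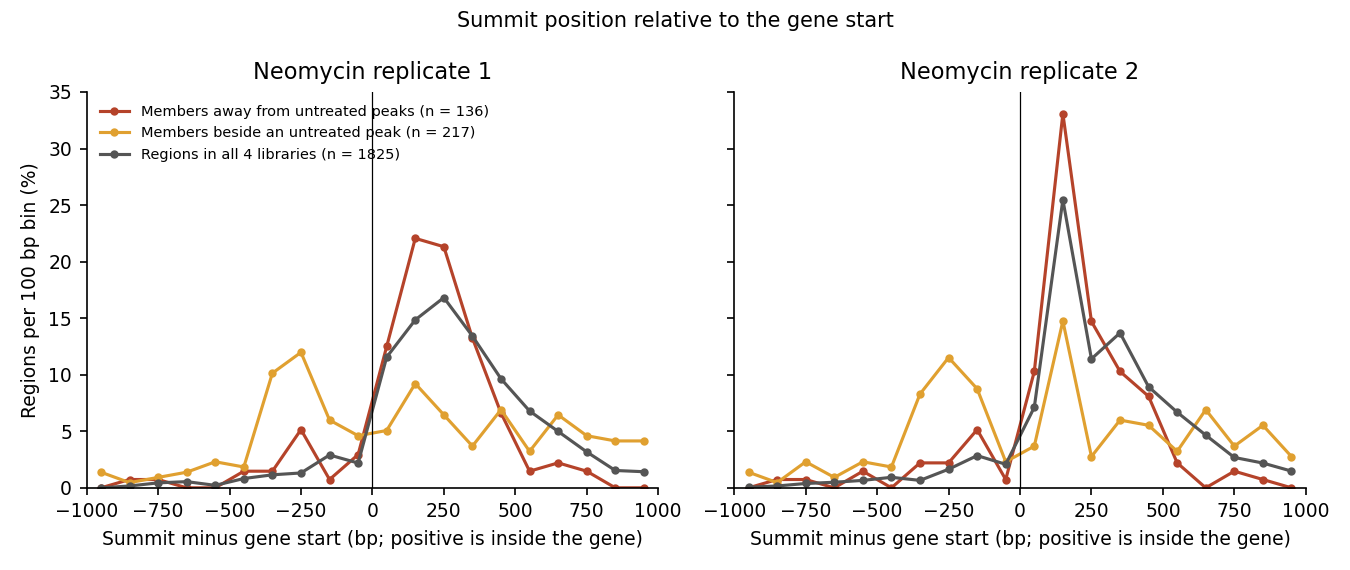
Distance of the peak summit from the gene start (x axis, bp, positive inside the gene) as the share of regions per 100 bp bin (y axis, percent), in neomycin replicate 1 (left) and neomycin replicate 2 (right). Members away from untreated peaks (n = 136) and regions in all 4 libraries (n = 1825) peak just inside the gene, while members beside an untreated peak (n = 217) have a further group of summits near 250 bp upstream.

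In both classes the pileup was alike, with median percentiles of 57.34 and 62.36 in neomycin replicates 1 and 2. The composition of the promoters was less alike. Of genes with a member away from untreated peaks, 69.86% of 146 promoter windows had a CpG ratio over 0.6 (Wilson interval 61.99 to 76.72), with a median of 0.723 and a G and C content of 59.2%. Of genes with a member beside an untreated peak the values were 89.51% of 267 (85.26 to 92.64), 0.843 and 64.3%. Divergent pairs of starts made up 10.43% of the members away from untreated peaks and 19.54% of those beside one. The members away from untreated peaks were thus more often at starts with fewer CpG in these lists, and no test was made.

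The summits of both neomycin libraries lay close together. They lay a median of 61 bp apart (range 0 to 326), where the short regions leave little room for more, and the overlap covered a median of 81.8% of the shorter of the paired peaks. Of 351 regions whose nearest gene has a known strand, 337 (96.01%) were nearest to a start. The median distance from summit to nearest gene end was 305.5 bp in neomycin replicate 1 and 309 bp in the other neomycin library. The members nearest inside the limit of 1 kb were at Mmp14, a membrane-bound matrix protease, at 999 bp, Mpp2, a scaffold protein of the membrane, at 997 bp and Rabep2, an endosomal Rab effector, at 994 bp. Just outside it lay regions at the transcription factor gene Trps1 at 1006 bp and at the Notch ligand gene Dll1 and the transcription factor gene Taf15, both at 1007 bp. The regions just inside had pileups of 6 to 11 and 9 to 14 in the neomycin libraries, and those just outside 5 to 8 and 11 to 14. Ranked by the smaller of their peak bases in the neomycin libraries, the members with the most were AW209491, with 336 and 298 bp, and Gstp1, with 327 and 293 bp. Fam160b2 followed with 391 bp, summed over 2 peaks, and 286 bp, and Nelfa, a subunit of the negative elongation factor, with 222 and 357 bp.

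Of 29 marked genes of oxidative defence, Gstp1 and Prdx1 were members (6.90%, against 4.46% over all marked genes). Gstp1 had a pileup of 9 in neomycin replicate 1 and 14 in neomycin replicate 2 at chr19:4037622-4037948. Its summits lay 103 and 41 bp inside the gene, and untreated peaks were 24953 and 24971 bp away. A near-identical tandem copy, Gstp2, makes its reads uncertain. Prdx1 had 9 and 13 at chr4:116685641-116685810, summits 90 and 121 bp inside the gene, and untreated peaks 34045 and 34005 bp away. Neither gene had an untreated peak anywhere in its body or within 1 kb of it.

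Of 30 marked genes of the p53 response and apoptosis, 4 were members (13.3%, against 4.46% over all marked genes). Trp53, which encodes p53 and shares its region with Wrap53, had a pileup of 5 in neomycin replicate 1 and 11 in neomycin replicate 2, with summits 393 and 353 bp inside the gene. Its nearest untreated peaks were 1.55 kb away in untreated replicate 1 and 23.9 kb in untreated replicate 2. At Bcl2l11, a BH3-only killer of the BCL2 family, at Cycs, which encodes cytochrome c, and at Pidd1, the scaffold of a caspase-activating complex, untreated replicate 1 had peaks 490, 338 and 165 bp away. The pileups in the neomycin libraries were 6 and 11 at Bcl2l11, 7 and 9 at Cycs, and 5 and 12 at Pidd1. Bcl2l11 shares its region with the end of Acoxl, and Pidd1 with the start of Rplp2. At such shared regions the mark cannot be assigned to a gene. Trp53 was the 1 gene of this list whose member lay over 1 kb from any untreated peak.

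The unfolded protein response gave 4 members of 31 marked genes (12.9%, against 4.46% over all marked genes), all beside an untreated peak. Herpud1 and Derl1, parts of the machinery that degrades misfolded proteins of the endoplasmic reticulum, had a pileup of 9 and 10, and of 8 and 13, in the neomycin libraries. The untreated peaks lay 308 and 431 bp from the Herpud1 member and 30 and 63 bp from that of Derl1. Creld2, a secreted factor induced by endoplasmic reticulum stress, had 8 and 11, and Wfs1, the membrane protein wolframin, had 7 and 9, with untreated peaks 437 to 558 bp away. The Creld2 region is shared with the start of Alg12. At Herpud1 all 4 libraries had a peak just inside the start, and the member was a further neomycin peak deeper in the gene. Of the 29 marked heat shock and chaperone genes and the 48 of the cell cycle, 0 had a member region, against 4.46% over all marked genes. These are fixed lists that do not hold every gene of either function. The condensin member Smc2 is in neither, so nothing is read from these counts.

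**Figure D4:**
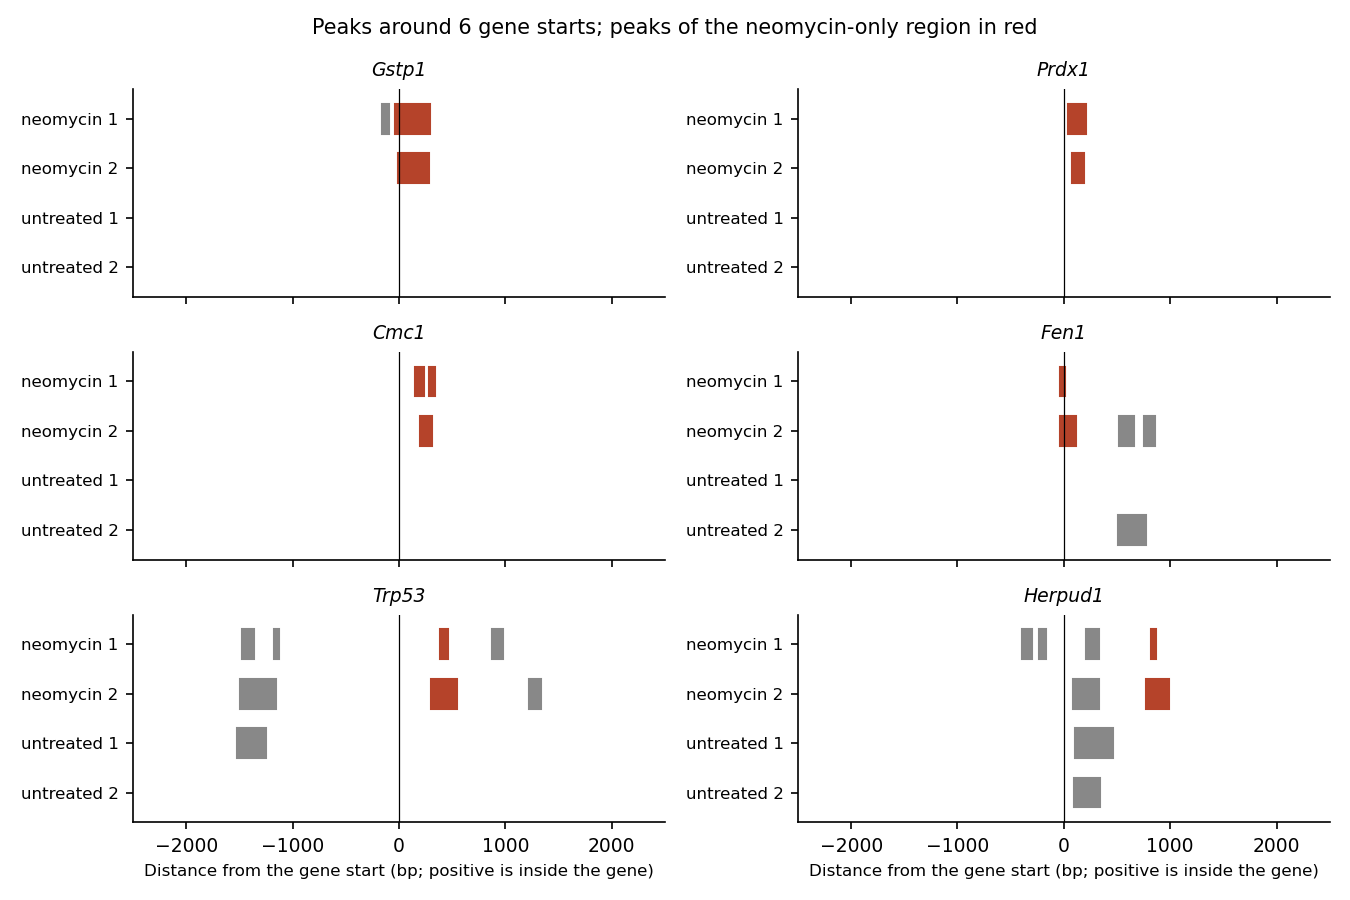
Called peaks around the starts of Gstp1, Prdx1, Cmc1, Fen1, Trp53 and Herpud1, genes chosen after their values were seen: each bar is a peak drawn by its distance from the gene start (x axis, bp, positive inside the gene), with 1 line per library and peaks of the neomycin-only region in red. Untreated peaks are missing from the windows of Gstp1, Prdx1 and Cmc1, while untreated replicate 2 has one at Fen1, untreated replicate 1 one at Trp53 and both have one at Herpud1.

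DNA replication and repair had 7 members among 56 marked genes (12.5%, against 4.46% over all marked genes). Rad51b and Rad51c, paralogs of the strand-exchange protein of homologous recombination, had no untreated peak nearer than 125 and 45.3 kb to the member. Their pileups were 8 and 14 at Rad51b, and 8 and 10 at Rad51c, which shares its region with Tex14. Msh6, which recognises mismatches, had 7 and 9, and Ercc4, a nuclease of nucleotide excision repair, had 6 and 11. Gins2, of the replicative helicase, had 7 and 10, and Nbn, which senses double-strand breaks, had 8 and 9. These 4 and Fen1 had an untreated peak within 1 kb. At Ercc4 and Gins2 no other neomycin peak lay within 1 kb of the member, while at Msh6, Nbn and Fen1 the neighbouring region held a neomycin peak too. The list holds genes of separate repair pathways.

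Of 40 marked immediate early and stress signalling genes 2 were members (5.0%). This is near the 4.46% over all marked genes, and nothing is read from the count. Fosb, an AP-1 subunit, had a pileup of 7 and 13 in the neomycin libraries and untreated peaks 284 and 355 bp away. Myc, a regulator of growth, had 7 and 8, with untreated peaks 175 and 790 bp away. Of 71 marked genes of developmental signalling 3 were members (4.23%), also near that share. They were Gsk3b, a kinase that destabilises beta-catenin, the Wnt co-receptor gene Lrp6 and the receptor gene Notch3. All 3 had an untreated peak within 1 kb of the member, the nearest at 785, 126 and 140 bp. Among 24 marked genes of H3K4 methylation 2 were members (8.33%, against that same 4.46%). Setd1b, a catalytic subunit, had 8 and 10 with untreated peaks 10 and 186 bp away. Wdr5, a core subunit, had 7 and 14 with untreated peaks 220 and 211 bp away. All 7 of these genes had a peak of at least 1 untreated library within 1 kb of the member, at Notch3 of untreated replicate 1 alone.

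None of the 9 cell type marker lists had a member. Of 30 supporting and progenitor cell genes, 24 were marked in some library, 11 in all 4 and 0 by a member region. Of 26 hair cell genes 11 were marked and 0 were members, and of 20 macrophage and blood genes 0 were marked. Against the 4.46% over all marked genes, counts of 0 among 24 and 11 marked genes are near the background, and nothing is read from them. Among the members outside those lists were several regulators. Ezh2, the methyltransferase of Polycomb complex PRC2, had a pileup of 7 and 10 with untreated peaks 270 and 322 bp away. The deacetylase gene Hdac1 had 6 and 9 and none nearer than 13.5 kb. The core clock repressor Nr1d1 had 8 and 16, with summits 1136 and 1119 bp inside the gene and none nearer than 20.1 kb. These 3 were picked after their values were seen.

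Symbol families gave the broader make-up. Translation factors and tRNA synthetases had 11 members of 95 marked (11.6%, against 4.46% over all marked genes). Among them were Aars and Cars2, the alanine and the mitochondrial cysteine tRNA synthetases. Aars had a pileup of 8 and 12 with no untreated peak nearer than 28.7 kb to the member, though each untreated library had 1 peak in the gene or within 1 kb of it. Cars2 had member regions on either side of its start, with pileups of 8 and 13 inside the gene and 7 and 12 upstream, and no untreated peak in the gene or within 1 kb of it. Ears2, the mitochondrial glutamate synthetase, had 6 and 11 with an untreated replicate 2 peak at 29 bp. The family is matched by symbol and so also counts Eef1akmt4, a methyltransferase that acts on an elongation factor. Of its 11 members 4 had a region over 1 kb from any untreated peak.

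Collagens and matrix genes had 8 members of 70 marked (11.4%, against 4.46% over all marked genes). Col4a1 and Col4a2, which encode the network-forming collagen of basement membranes, share a divergent start. Their region had a pileup of 8 and 13 and an untreated replicate 2 peak 7 bp away. Lamb2, a laminin subunit of basement membranes, had 6 and 13 and no untreated peak nearer than 10.4 kb. Col6a2 had 6 and 9 and none nearer than 154 kb, while Itgb1, the beta subunit of many matrix receptors, had 7 and 9 with untreated peaks 309 and 304 bp away. Col6a2 had no untreated peak in the gene or within 1 kb of it, while Lamb2 had 1 of each untreated library there, away from the member. The Col4a1 and Col4a2 region and Itgb1 had untreated peaks beside the member.

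Autophagy and lysosome acidification had 5 members of 51 marked (9.80%, against 4.46% over all marked genes). Map1lc3b, which encodes the membrane tag LC3, had a pileup of 9 and 10, and Atg3, the enzyme that attaches it to lipid, had 8 and 10. Both had an untreated replicate 1 peak within 1 kb, at 163 and 600 bp, as did Atg2a, a lipid transfer protein. Atg16l2, a relative of the factor that places LC3 on membranes, had 8 and 11 with no untreated peak nearer than 8.44 kb. Lamtor4, a lysosomal scaffold subunit, had 6 and 13 and none nearer than 7.01 kb.

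Cytosolic ribosomal proteins had 6 members of 73 marked (8.22%, against 4.46% over all marked genes). Among them were Rpl24, Rpl36 and Rps21 away from untreated peaks and Rpl8 and Rplp2 beside them. Rpl36 shares its region with Micos13, and each untreated library had 1 peak in Rpl36 or within 1 kb of it. Mitochondrial ribosomal proteins had 4 of 69 (5.80%) and oxidative phosphorylation 5 of 92 (5.43%), of which Ndufa9, a complex I subunit, was away from untreated peaks with a pileup of 5 and 11. Transcription machinery had 8 of 118 (6.78%), including Gtf2h4, Ints2 and Taf8 away from untreated peaks. The Gtf2h4 region lies at the end of that gene and at the start of Vars2, which is counted among the tRNA synthetases. Zinc finger genes had 10 of 341 (2.93%), and 6 of the 10 were away from untreated peaks, which is uncertain where clustered copies share sequence. Forkhead, homeobox and Sox factors had 5 of 86 (5.81%). These were Foxc1, Foxp1, Irx5, Six5 and Sox4, all beside an untreated peak. G protein-coupled receptors had 2 of 67 (2.99%), Gpr75 and Gpr83, with no untreated peak nearer than 68.3 and 75.4 kb.

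**Figure D5:**
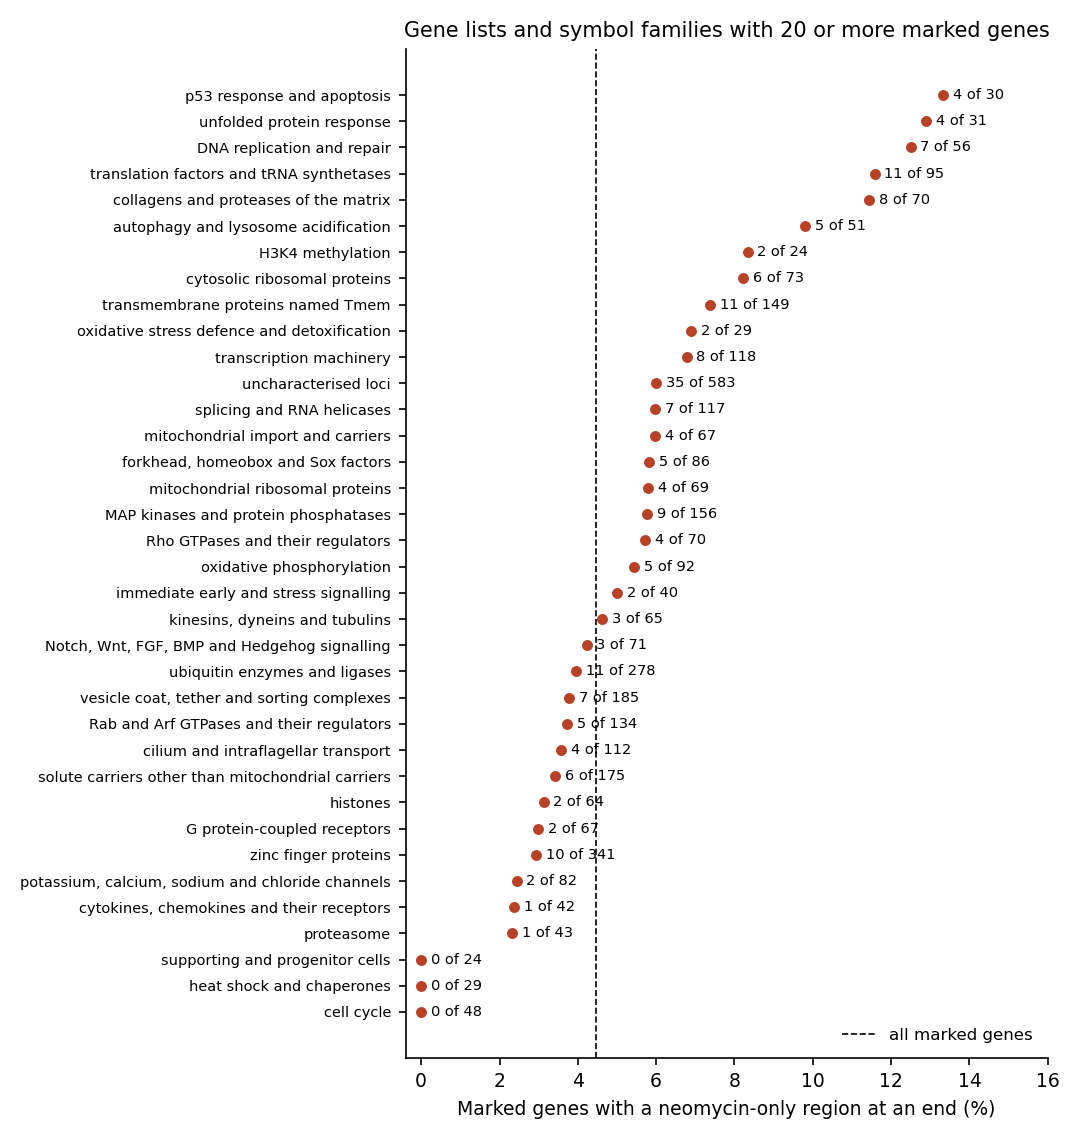
Share of marked genes with a neomycin-only region at an end (x axis, percent) for each gene list and symbol family with 20 or more marked genes, with the counts beside each point; the dashed line is the share over all marked genes, 4.46%. Shares run between 0% and 13.3%, on counts of at most 35 genes per list.

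Over all lists and families, 199 of the 514 member genes belonged to one and 315 to none. Of 514 member genes, 320 had an untreated peak within 1 kb of the same gene end, and 75 also had a gene-end region marked in all 4 libraries. At the other extreme, 166 had no untreated peak in the gene or within 1 kb of it. Regions shared by several genes were common, with 96 of 424 members (22.64%) at 2 or more genes, against 15.18% of regions marked in all 4 libraries. At these the mark cannot be assigned to a gene. Those with the most genes were at Alg3, Eef1akmt4 and Eef1akmt4-ece2, at Shld3, Trappc13 and Trim23, and at Bysl, Gm20517 and Med20. A single member lay on chromosome X, at Eif2s3x, a subunit of translation initiation factor eIF2, with a pileup of 6 and 7. That chromosome held 155 and 41 peaks in the neomycin lists and 226 and 116 in the untreated lists.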

How the data were processed

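The 4 H3K4me3 peak lists were used as deposited, 1 list per library, and the 2 inputs have no list used here. The submitters' processing notes name mm10 as the build and CASAVA 1.4, Bowtie2, MACS2 and deepTools as tools. What each did, with which settings, and whether the inputs were used is not given in the sources used here. Start, end, length, summit and a pileup signal at the summit are given for every peak, per the file headers. Further deposited columns are a fold enrichment, a ratio over background, and a -log10 p-value and a -log10 q-value. All are the authors' values per peak and were used only within a list. Positions are 1-based. The lists give no read totals, so depth is unknown.

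Peaks on chromosomes 1 to 19 and X that shared at least 1 bp were merged, and regions within 1 kb of a protein-coding gene's start or end in the RefSeq table of GRCm38.p6 were kept. The table gives no strand. Strand, start and sequence came from the RefSeq promoter table, which held 17273 of 21627 genes. Where a region held several peaks of a library, peak bases are summed and the summit is that of the highest pileup. Motifs were searched on both strands, and overlapping matches each count.

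The groups came from the labels. No test was made, because the rule uses the contrast. The members, gene lists and symbol families were chosen with earlier results of these data known. The rule for named genes took the 12 regions ranked highest by the lower pileup percentile, up to 4 genes per list and 3 per family in alphabetical order, and the 4 regions with the most peak bases by the smaller of both neomycin values. It also took the 3 regions nearest to each side of the 1 kb limit, the 3 closest to an untreated peak and the 3 with the most genes. Tom1's inner region, Nr1d1, Hdac1, Ezh2, Eif2s3x and further list members were named after their values were seen. Some members are not reported here by name. All 596 genes of the 19 lists matched a symbol. The merging and the choice of members were tested on simulated data. The alternatives were other windows, merging distances, overlaps, q-value thresholds, equal list lengths and leaving out each library, with 2 added after seeing the data. Intervals are 95% Wilson intervals, for counting error only. Python 3.11.15, pandas 2.3.3, numpy 2.4.6, statsmodels 0.14.6 and matplotlib 3.10.9 were used.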

Additional observations from a re-analysis of the deposited data

How the results depend on the processing

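The count of members kept within 1.5 times of 424 under windows of 0.5 kb (334) and 2.5 kb (490), with peaks up to 500 bp apart merged (294), with neomycin peaks overlapping by at least 50.0% of the shorter (309) and with lists of equal length (457). Of the reported members, 183 remained after the 500 bp merge and 305 with equal lists. With -log10 q of at least 5 there were 89 regions at 109 genes, and with at least 10 there was 1 region at 1 gene. Of the reported members, 77 remained at the limit of 5 and 0 at the limit of 10. Leaving out 1 library gave 601 to 2501 regions and 721 to 2607 genes, since fewer lists had to meet the rule. Alternatives chosen after seeing the data gave 163 regions at 187 genes with no untreated peak within 1 kb, and 520 regions, 318 of them reported members, when each peak was set to 150 bp either side of its summit.

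The share of members with an untreated peak within 1 kb, 61.56%, was 56.29% with a 0.5 kb window, 11.22% after the 500 bp merge (which joins such peaks by construction), 53.93% and 0.0% at -log10 q of at least 5 and 10, 51.86% with equal lists, and 39.95% to 69.81% leaving out 1 library. The mean over both neomycin libraries of the median peak bases, 109.8 bp, was 65.0 to 130.5 bp leaving out 1 library. That of the median pileup percentile, 59.85, was 77.07 and 93.92 at the q-value limits and 69.68 with equal lists. That of the median distance from summit to gene end, 307.2 bp, was 247.2 and 361.8 bp with windows of 0.5 and 2.5 kb, 270.5 bp after the 500 bp merge, 303.0 bp with that overlap, 244.0 and 187.5 bp at the q-value limits, 287.5 bp with equal lists, 287.5 to 373.0 bp leaving out 1 library, 245.5 bp away from untreated peaks and 320.5 bp with peaks of fixed width. The cause of these shifts was not tested. No paired analysis was possible because these results come from no test. Depth is unknown, so a peak that was not called may still be a weak mark.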

Other observations

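Members were spread over the chromosomes, with 7 on chromosome 18 (1.62% of its gene-end regions), 18 on chromosome 1 (1.94%), 36 on chromosome 4 (3.42%), 25 on chromosome 15 (3.78%) and 40 on chromosome 8 (4.35%). Chromosome 8 held both member regions of Cars2 and of Tom1. Scarb1, a lipoprotein receptor, and Tbc1d2, a regulator of Rab GTPases, also had 2 member regions each, with untreated peaks no nearer than 47.9 and 47.5 kb. The hairpins of Mir3091, Mir7048 and Mir3082 lay 227, 972 and 889 bp from a member region, at Rps21, Zfp526 and Stub1, and whether these regions belong to the miRNA or to the gene cannot be told apart.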
